A study of Mus musculus with 66 samples.

Results

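The epidermal growth factor (EGF) receptor family and its ligands were followed through RNA sequencing libraries of a mouse bladder cancer cell line and of normal mouse urothelium. The gene set was chosen by name as 4 receptors (Egfr, Erbb2, Erbb3 and Erbb4) and 6 ligands (Hbegf, Areg, Ereg, Tgfa, Epgn and Btc), and the Ensembl identifiers of all 10 were found among the 39179 genes of the count tables. The cancer sample was BC57, a mouse bladder cancer cell line grown in culture, so it holds cancer cells with no tissue around them. The reference tissue was normal urothelium, the lining of the bladder, taken from 9 mice. No source used here says how the mice were combined. Both materials were split, with some frozen in liquid nitrogen (FF) and the rest fixed for 24 h in buffered formalin before wax embedding (FFPE), which gave 4 RNA samples. No genotype, strain, age or drug treatment is given in the labels for either material. The Ovation SoLo kit was used at inputs of 50 pg, 250 pg and 2 ng, the SMARTer Pico kit at 250 pg and 2 ng, and poly(A) selection at 1 µg with FF RNA alone. The 66 libraries formed 22 groups of 3 repeat libraries, and BC57 was compared with urothelium in 11 conditions that shared kit, preservation and input. The series' design names 4 samples, each run in triplicate with the low-input kits, so the 3 libraries of a group were taken as repeat preparations of 1 RNA sample. No label names separate animals or cultures within a group, and each SD and p-value below then measures the spread between such preparations.

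Egfr encodes the EGF receptor, and Erbb2, Erbb3 and Erbb4 encode its relatives, which signal as pairs at the cell surface. ERBB2 binds no known ligand and acts as a partner, ERBB3 has a weak kinase and recruits phosphoinositide 3-kinase, and ERBB4 binds neuregulins and some EGF-like ligands. The ligands are made as membrane-anchored precursors that ADAM proteases cut free. Amphiregulin (Areg), transforming growth factor alpha (Tgfa) and epigen (Epgn) bind the EGF receptor, whereas heparin-binding EGF-like growth factor (Hbegf), betacellulin (Btc) and epiregulin (Ereg) also bind ERBB4. In the bladder, the family is known for its part in urothelial repair and for receptor genes that are altered in urothelial cancer.

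The genes are spread over several chromosomes of the mouse genome (mm10, GENCODE M21). Egfr (ENSMUSG00000020122) spans chr11:16752203-16918158 and Erbb2 (ENSMUSG00000062312) chr11:98412470-98437716, both on the plus strand. Erbb3 (ENSMUSG00000018166) spans chr10:128567523-128589652 and Erbb4 (ENSMUSG00000062209) chr1:68032186-69108059, both on the minus strand. Tgfa (ENSMUSG00000029999) spans chr6:86195223-86275719 on the plus strand. Epgn (ENSMUSG00000035020), Ereg (ENSMUSG00000029377), Areg (ENSMUSG00000029378) and Btc (ENSMUSG00000082361) share chromosome 5, and Hbegf carries the identifier ENSMUSG00000024486.

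Depth differed between kits: the 36 Ovation libraries held 928722 to 4706030 counts, the 24 SMARTer libraries 651879 to 7152648 and the 6 poly(A) libraries 18499591 to 36187226. The labelled samples were checked with marker genes in the poly(A) libraries, where levels are given as CPM, the counts scaled to library size after TMM normalization. Of 15 urothelial markers, 4 were called higher and 11 lower in BC57 than in urothelium. Krt7 stood at 3564 CPM in BC57 and 1684 CPM in urothelium, and Epcam at 613 CPM and 122 CPM. Upk3a, which encodes a uroplakin of the urothelial surface, stood at 0.0469 CPM in BC57 and 1593 CPM in urothelium. Stromal markers set the samples apart as well: 8 fibroblast markers summed to between 13.4 and 14.8 CPM in BC57 libraries, against 9748 to 10585 CPM in urothelium libraries, and 6 endothelial markers summed to between 0.847 and 1.17 CPM, against 278 to 290 CPM. None of these fibroblast and endothelial markers was at 0 in all 3 poly(A) libraries of either sample. The part of such other cells in the results below was not tested. In such bulk RNA, fewer cells of a type and less RNA per cell cannot be told apart.

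Among the SMARTer FFPE libraries, urothelium library 3 stood apart at both inputs. Its mean correlation with the other libraries of its group, across genes, was 0.325 at 250 pg and 0.527 at 2 ng, whereas libraries outside the SMARTer FFPE groups ranged from 0.859 to 0.999. At an equal depth of 651879 counts, these 2 libraries held 15915 and 21006 genes with at least 5 counts, and the other 64 libraries held 9590 to 11885. BC57 library 3 also differed from its group, though less. Its mean correlation was 0.823 at 250 pg, below all libraries outside the SMARTer FFPE groups, and 0.907 at 2 ng. It held 11562 genes at 250 pg, against 9870 and 9761 in the others of its group, and 11885 at 2 ng, against 9899 and 9998. Calls, spread, likeness and list medians that include SMARTer FFPE urothelium are followed by values without the libraries numbered 3. The share of all genes called is given for the main fits only. Gains in calls without those libraries are therefore not read as results about the set.

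Among the receptors, BC57 cells carried more Egfr and less Erbb2, Erbb3 and Erbb4 mRNA than urothelium in the poly(A) libraries. Egfr had 102, 107 and 104 CPM in BC57, against 63.9, 65.1 and 62.5 CPM in urothelium. All 3 BC57 libraries lay above all 3 urothelium libraries, with a log2 fold change of 0.71 (SE 0.04) and an adjusted p of 3.88e-13 in edgeR's quasi-likelihood test. Erbb2 had 59.7, 59.6 and 62.3 CPM in BC57, against 140, 157 and 161 CPM in urothelium. The groups did not overlap, and the log2 fold change was -1.34 (SE 0.05; edgeR adjusted p = 4.88e-17). Erbb3 had 32.5, 32.3 and 31.6 CPM in BC57, against 191, 189 and 195 CPM in urothelium. Every urothelium library was far above every BC57 library, and Erbb3 fell by 2.57 on the log2 scale (SE 0.04; edgeR adjusted p = 1.52e-23). Erbb4 had 2, 0 and 0 counts in BC57, against 51, 48 and 59 counts in urothelium. Its summed level was 87.3 times lower in BC57, with an exact 95% interval of 23.8 to 727 that covers counting error only (edgeR adjusted p = 2.39e-11). Erbb4 was close to the detection limit in the cell line and at 2.09 ± 0.45 CPM (SD, n = 3) in urothelium.

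Of the 10 genes of the set, all 10 were called in the poly(A) comparison, 6 higher and 4 lower in BC57. Over all 17934 genes tested there, 91.2% were called at an adjusted p under 0.05, 42.8% higher and 48.5% lower. With so many genes called, 10 of 10 does not set these genes apart. Erbb4 and Epgn among them passed the low-count filter partly through the sample where they were high, so their calls are not set against the background. The median log2 fold change of all genes tested was -0.12. The receptors' median was -1.96. It includes Erbb4, so it is not set against the median of all genes, and Egfr among the receptors was higher in BC57.

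**Figure D1:**
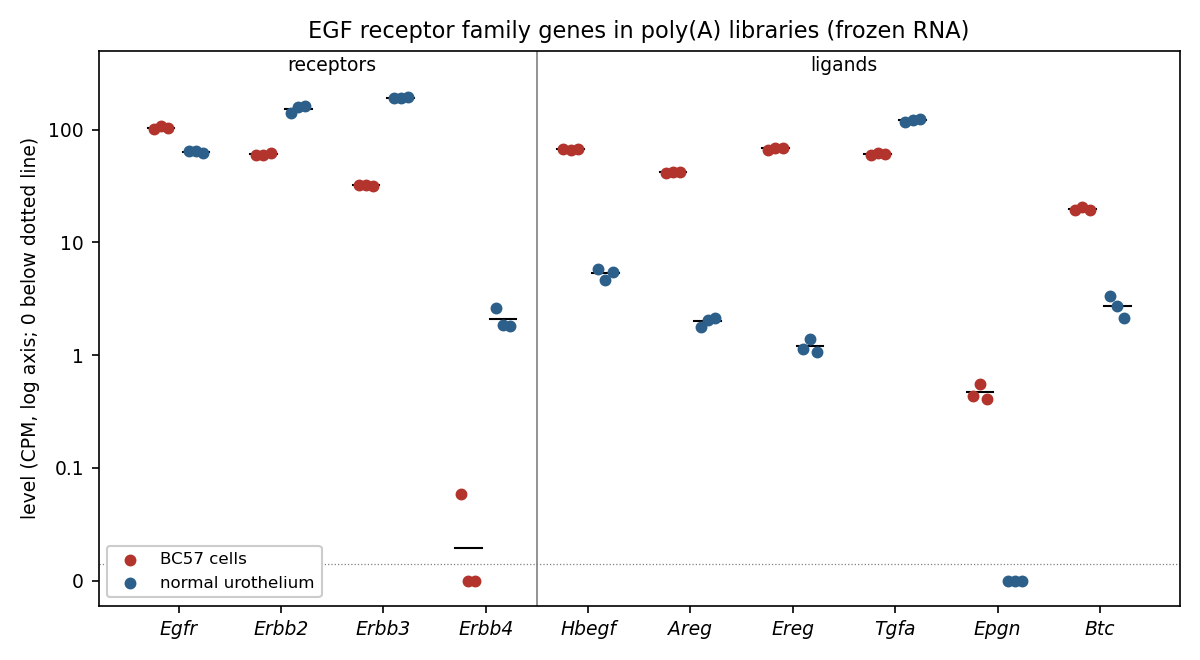
Levels of the 4 receptor and 6 ligand genes in the poly(A) libraries, in CPM on a log axis with 0 drawn below the dotted line. Each point is 1 of 3 repeat libraries (BC57 red, urothelium blue) and each bar is the group mean; for every gene the 2 groups of points are separate, with Erbb2, Erbb3, Erbb4 and Tgfa lower and the other 6 genes higher in BC57. The share of all genes that separate in this way was not counted, and 91.2% of all genes tested were called here, so separation does not set these genes apart.

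Per kilobase of exon, the summed receptor level was 26.2 ± 0.266 CPM per kb in BC57 and 66.9 ± 2.36 CPM per kb in urothelium (SD, n = 3 each). Egfr made up 35.1% ± 0.637 of that sum in BC57 and 8.43% ± 0.394 in urothelium. Erbb2 held nearly the same share in both, 44.4% ± 0.856 in BC57 and 43.8% ± 1.82 in urothelium. Erbb3 took 20.4% ± 0.487 in BC57 and 47.5% ± 1.47 in urothelium. In the poly(A) libraries, this made it the most abundant receptor per kilobase in urothelium and the third in BC57. In every Ovation group of urothelium, Erbb3 also had a higher mean than Erbb2. In SMARTer FF urothelium the 2 genes overlapped, with Erbb3 at 21.8 and Erbb2 at 21.2 CPM per kb at 2 ng. At 250 pg they stood at 21.3 and 24 CPM per kb. For Egfr and Erbb3, both low-input kits gave a contrast in the same direction at 2 ng of FF RNA. The Egfr share was 52.3% ± 1.54 in BC57 and 19.2% ± 1.91 in urothelium with Ovation, and 35.9% ± 1.99 and 10.6% ± 0.713 with SMARTer. For Erbb3 the shares were 17.4% ± 1.59 in BC57 and 46.2% ± 3.3 in urothelium with Ovation, and 21.7% ± 1.98 and 45.2% ± 1.24 with SMARTer. Erbb2 took 30.3% ± 2.91 in BC57 and 34.3% ± 1.96 in urothelium with Ovation, and 42.4% ± 2.88 and 43.8% ± 1.77 with SMARTer. With Ovation, Egfr in place of Erbb2 thus had the largest share in BC57.

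Among the ligands, 5 of 6 were higher in BC57 in the poly(A) libraries and Tgfa alone was lower. Ereg encodes epiregulin, a ligand of low affinity and broad receptor range, and had 66.5, 68.5 and 68.9 CPM in BC57, against 1.12, 1.38 and 1.07 CPM in urothelium. Its log2 fold change was 5.83 (SE 0.08; edgeR adjusted p = 1.36e-24), with no overlap between the groups. Areg had 41.4, 42.4 and 42.2 CPM in BC57, against 1.79, 2.04 and 2.14 CPM in urothelium, a log2 fold change of 4.37 (SE 0.08). Hbegf, which also serves as the entry receptor of diphtheria toxin in humans, had 67.1, 65.7 and 67 CPM in BC57, against 5.82, 4.62 and 5.45 CPM in urothelium. The difference was 3.66 on the log2 scale (SE 0.07), and for both genes the BC57 libraries all lay above the urothelium libraries. Btc had 19.2, 20.5 and 19.5 CPM in BC57, against 3.37, 2.73 and 2.14 CPM in urothelium, a log2 fold change of 2.88 (SE 0.11). Epgn was found at 15, 10 and 14 counts in BC57 and at no count in urothelium, so that its level was at least 11.8-fold higher in BC57 taking 3 counts for the urothelium group as the floor. At 0.468 ± 0.0792 CPM (SD, n = 3), Epgn was the scarcest of the 6 ligands of the set in the cell line. Tgfa had 59.8, 62.6 and 60.4 CPM in BC57, against 118, 122 and 123 CPM in urothelium. It was the only ligand with the urothelium libraries on top, at a log2 fold change of -0.995 (SE 0.04; edgeR adjusted p = 5.47e-16).

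Ligand levels per kilobase summed to 78.8 ± 0.928 CPM per kb in BC57 and 22.3 ± 0.394 CPM per kb in urothelium (SD, n = 3 each). Tgfa made up 11.9% ± 0.187 of that sum in BC57, against 83.7% ± 0.528 in urothelium. In BC57, Areg led with 43.8% ± 0.038, followed by Ereg with 20.9% ± 0.191 and Hbegf with 17.5% ± 0.387; in urothelium these held 7.34% ± 0.547, 1.3% ± 0.181 and 4.92% ± 0.625. The change in the leading ligand was also measured at 2 ng of FF RNA. With Ovation, Areg held 41.4% ± 1.23 in BC57 and 8.6% ± 3.1 in urothelium, and Tgfa 13.1% ± 1.52 and 86.7% ± 1.17. With SMARTer, Areg held 59% ± 3.5 in BC57 and 11% ± 6.07 in urothelium, and Tgfa 7.98% ± 0.322 and 80.1% ± 5.71.

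**Figure D2:**
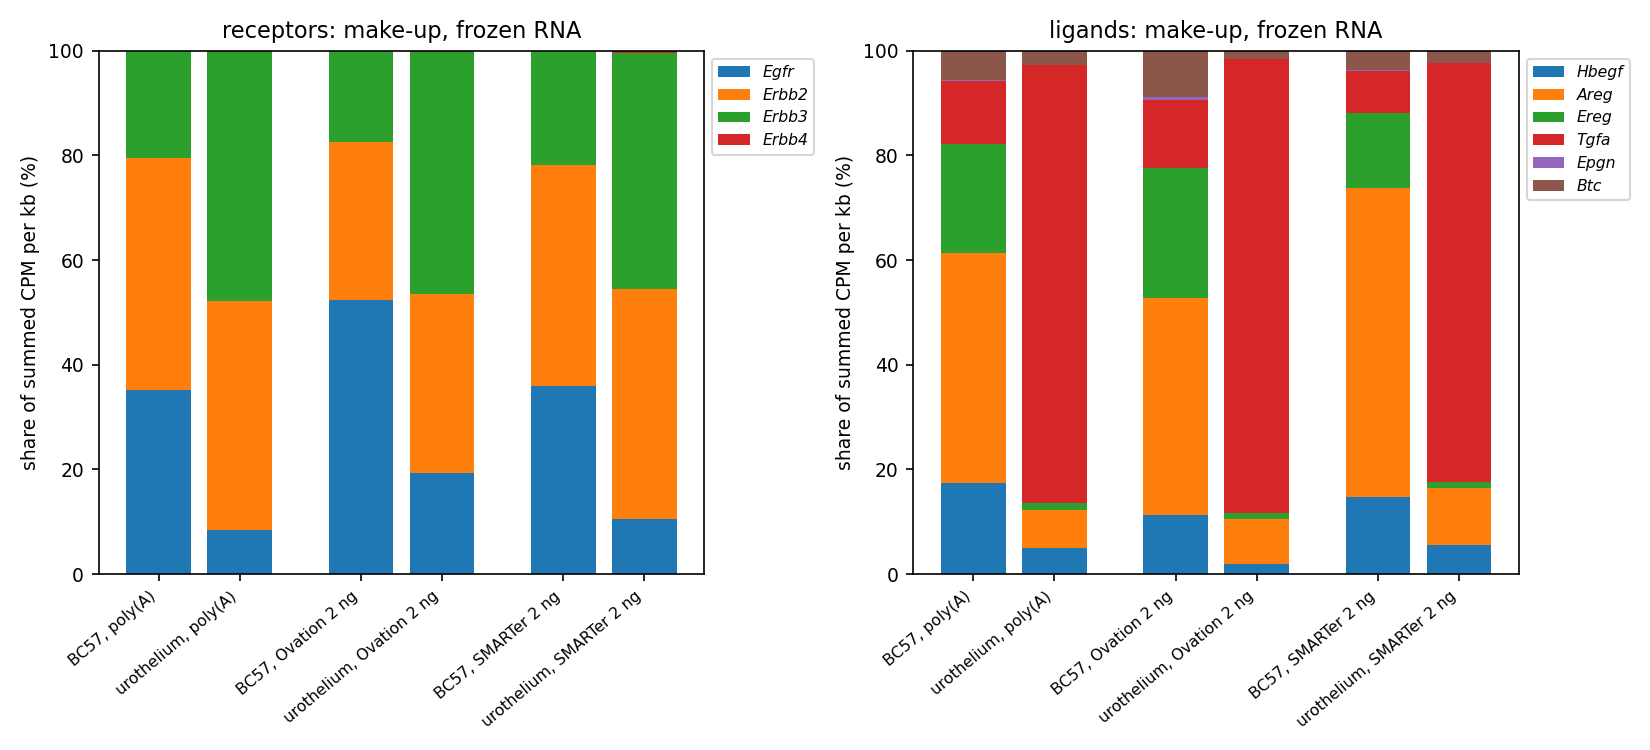
Share of each receptor (left) and ligand (right) in the summed level per kilobase of its group of genes, in percent, for FF RNA in poly(A) libraries and in 2 ng Ovation and SMARTer libraries. Bars are means of 3 libraries, BC57 left of urothelium in each pair; in poly(A) libraries Egfr takes 35.1% of the BC57 bar and 8.43% of the urothelium bar, and Tgfa 11.9% and 83.7%.

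In the poly(A) libraries, the order of levels per kilobase differed between the samples. In BC57 poly(A) libraries it ran Areg (34.5 ± 0.432 CPM per kb), Ereg (16.5 ± 0.307), Hbegf (13.8 ± 0.166), Erbb2 (11.6 ± 0.296), Tgfa (9.38 ± 0.224), Egfr (9.19 ± 0.204), Erbb3 (5.34 ± 0.0776), Btc (4.36 ± 0.155), Epgn (0.259 ± 0.0439) and Erbb4 (0.00158 ± 0.00273), each as mean ± SD over 3 libraries. Of these neighbours, Tgfa and Egfr overlapped between libraries and the other pairs did not. In urothelium it ran Erbb3 (31.8 ± 0.48), Erbb2 (29.3 ± 2.21), Tgfa (18.7 ± 0.441), Egfr (5.64 ± 0.116), Areg (1.64 ± 0.15), Hbegf (1.1 ± 0.127), Btc (0.608 ± 0.136), Ereg (0.289 ± 0.0408), Erbb4 (0.169 ± 0.0364) and Epgn at 0. No neighbours overlapped there. With the longest transcript as length in place of all exons, Hbegf moved above Ereg and Tgfa above Erbb2 in BC57, and Hbegf above Areg in urothelium.

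The genes Epgn, Ereg, Areg and Btc lie beside each other on mouse chromosome 5, within 376 kb (mm10, chr5:91027464-91402994, GENCODE M21), and all of them were higher in BC57. The protein-coding genes that flank this stretch did not all follow. Cxcl2, a chemokine gene before it, stood at 60.6 ± 2.07 CPM in BC57 and 0.0298 ± 0.0266 CPM in urothelium (SD, n = 3 each), and Mthfd2l, a gene of mitochondrial folate metabolism, at 26.1 ± 3.52 CPM and 7.66 ± 0.415 CPM, with a log2 fold change of 1.74 (edgeR adjusted p = 2.41e-14). Parm1, on the other side, was lower, at 30.6 ± 0.715 CPM in BC57 and 332 ± 2.64 CPM in urothelium, a log2 fold change of -3.44 (edgeR adjusted p = 7.91e-26). Cxcl1 stood at 0.0485 ± 0.0841 CPM in BC57 and 0.152 ± 0.0987 CPM in urothelium and was not tested because of its low counts.

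The 250 bases before the RefSeq start of Areg, Epgn and Btc (GRCm38.p6) are shown because these neighbours were higher together, with motifs in capitals. Their neighbour Ereg was higher too, but the promoter source held no sequence for it, so it was not searched. Searched on both strands were TGACGTCA, the full cAMP response element, TGANTCA, the AP-1 site, and TATAAA, the TATA box; none of these words overlaps another where found. 
Areg, chr5:91139349-91139598, plus strand: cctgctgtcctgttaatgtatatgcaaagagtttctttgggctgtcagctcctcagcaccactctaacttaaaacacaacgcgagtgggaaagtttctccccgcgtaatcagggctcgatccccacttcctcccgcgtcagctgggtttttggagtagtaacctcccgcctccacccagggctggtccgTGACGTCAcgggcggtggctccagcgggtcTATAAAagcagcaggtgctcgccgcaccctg
Epgn, chr5:91027267-91027516, plus strand: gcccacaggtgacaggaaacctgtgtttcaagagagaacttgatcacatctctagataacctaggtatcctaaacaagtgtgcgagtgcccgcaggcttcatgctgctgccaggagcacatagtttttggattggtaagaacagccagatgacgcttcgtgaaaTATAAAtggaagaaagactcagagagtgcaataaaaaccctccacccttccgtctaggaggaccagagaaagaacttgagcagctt
Btc, chr5:91402995-91403244, minus strand: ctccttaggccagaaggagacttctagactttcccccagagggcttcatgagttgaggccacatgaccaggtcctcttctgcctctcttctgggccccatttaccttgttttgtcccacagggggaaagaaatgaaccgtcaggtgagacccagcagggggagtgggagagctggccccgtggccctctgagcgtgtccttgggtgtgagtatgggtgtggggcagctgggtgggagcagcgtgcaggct
Areg held TGACGTCA at bases 61 to 54 before its start and TATAAA at bases 31 to 26. Epgn held TATAAA at bases 86 to 81, and the Btc window held none of the 3 motifs. Of 32851 RefSeq promoters of the same length, 1.55% held TGACGTCA, 12.4% held TATAAA and 6.75% held TGANTCA. Among the 7 genes of the set with a promoter in the table, TGACGTCA was found only for Areg, TATAAA only for Areg and Epgn, and TGANTCA for none. A match describes the letters and does not show that a factor binds there.

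Across all 11 conditions, Erbb3 and 3 of the ligands were called most often within the set. The share of all genes called ranged from 8.62% to 91.2% between conditions. How many of all genes were called in as many conditions was not counted, so the tallies below are not read as a trait of the set. Erbb3 was called lower in BC57 in 10 of 11 conditions, with log2 fold changes from -3.30 to -1.67. Hbegf, Areg and Ereg were each called higher in 10 of 11, Tgfa lower in 9, Erbb2 lower in 8 and Btc higher in 7. The condition these 4 calls of Erbb3, Hbegf, Areg and Ereg missed was SMARTer FFPE at 250 pg. Egfr was called higher in 5 conditions, and its log2 fold changes ran from -0.16 to 0.75. Without both SMARTer FFPE libraries numbered 3, Erbb3, Areg and Ereg were called in 11 of 11 conditions, Hbegf and Erbb2 in 10, Tgfa in 9, Btc in 8 and Egfr in 6, and the lowest Egfr value was -0.40. Erbb4 passed the filter on low counts in 3 conditions and was called lower in all 3, or in 2 without both SMARTer FFPE libraries numbered 3; Epgn passed in 1. Since each of these passed partly through the sample where it was high, these counts are not set against the background. Over all libraries, Erbb4 had at least 1 count in 3 of 33 BC57 libraries and in 29 of 33 urothelium libraries, while Epgn had at least 1 count in 22 of 33 BC57 libraries and 2 of 33 urothelium libraries. Those 2 urothelium libraries were the SMARTer FFPE libraries numbered 3.

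**Figure D3:**
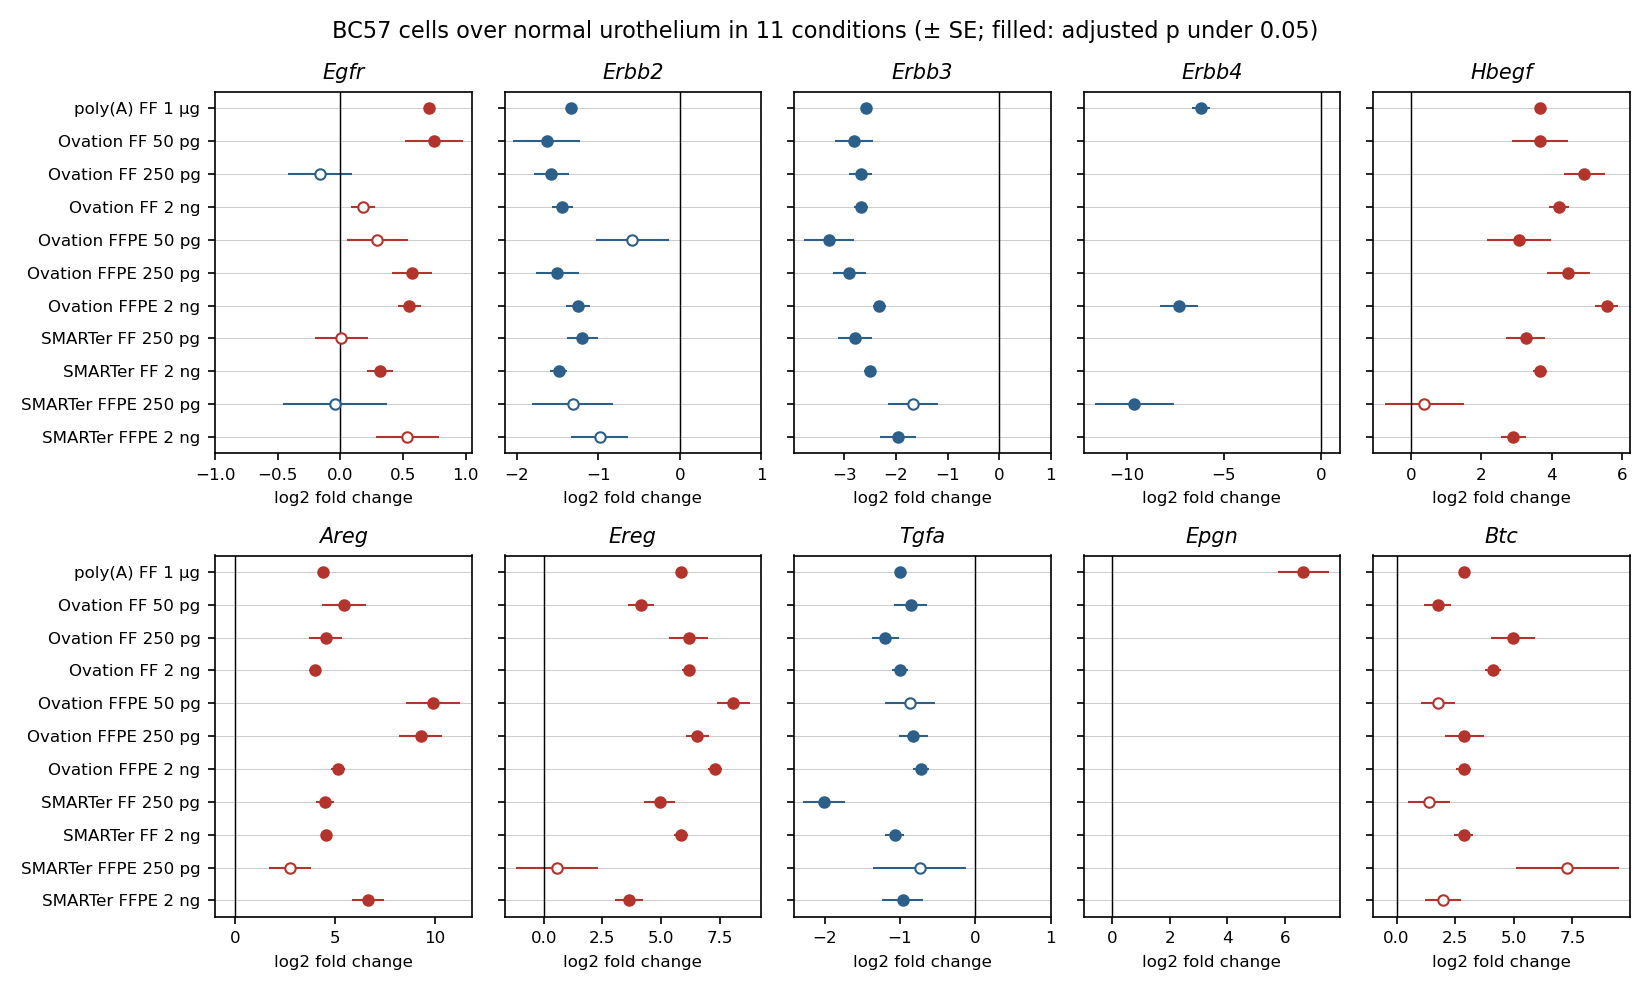
Log2 fold change of BC57 over urothelium for each gene (panels, each with its own x axis) in the 11 conditions (rows), with its SE; filled points passed an adjusted p of 0.05 and open points did not. Genes removed by the low-count filter have no point. Erbb3, Hbegf, Areg and Ereg are filled in 10 rows each, and Egfr lies closest to 0, from -0.16 to 0.75.

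In Ovation libraries of FF RNA, 8 of 10 genes were called at 50 pg, 5 higher and 3 lower, where 45.2% of all genes were called, 20.3% higher and 25% lower. At 250 pg 7 were called, 4 higher and 3 lower (47.7% of all genes, 21.5% higher and 26.2% lower), and at 2 ng again 4 higher and 3 lower (79.1%, 37.6% higher and 41.5% lower). Ovation libraries of FFPE RNA gave 3 higher and 1 lower at 50 pg (33.5%, 14.8% higher and 18.8% lower), 5 higher and 3 lower at 250 pg (52.2%, 24.1% higher and 28.1% lower) and 5 higher and 4 lower at 2 ng (76.9%, 36.6% higher and 40.3% lower). Of the 10 genes, 8 passed the low-count filter in each of these conditions and 9 at 2 ng of FFPE RNA, where Erbb4 passed through its urothelium counts. At 2 ng, 7 of 8 tested genes were called with FF RNA, which was near the background. With FFPE RNA 9 of 9 were called, among them Erbb4, whose call is not set against the background. SMARTer libraries of FF RNA gave 3 higher and 3 lower at 250 pg (51.4%, 24% higher and 27.5% lower) and 5 higher and 3 lower at 2 ng (77.5%, 36.3% higher and 41.2% lower). Those of FFPE RNA gave 1 lower at 250 pg (8.62%, 3.54% higher and 5.08% lower) and 3 higher and 2 lower at 2 ng (29.8%, 13.6% higher and 16.1% lower). The call at 250 pg was Erbb4, which passed the low-count filter through its urothelium counts, so it is not set against the background. The 4 calls at 50 pg of FFPE RNA with Ovation were Erbb3, Hbegf, Areg and Ereg. The Hbegf call was lost without BC57 library 3 (log2 fold change 2.83, edgeR adjusted p = 0.0648). Tgfa was called there under RLE scaling (-0.92, 0.0477), by DESeq2 (-0.91, 0.0313) and with all libraries thinned to equal depth (-0.94, 0.0464), and Btc by DESeq2 (1.73, 0.0357) and when thinned (2.41, 0.0183). In the same libraries, Areg had 127, 85 and 174 counts in BC57 and no count in any urothelium library, at least 107-fold higher in BC57 with 3 counts for the urothelium group as the floor. Ereg had 284, 373 and 419 counts in BC57, against 0, 1 and 2 counts in urothelium, a ratio of 300 with an exact 95% interval of 102 to 1454 from counting error only. Erbb2 was not called there, with 20.9, 39 and 39.7 CPM in BC57, against 38.2, 47.9 and 63.1 CPM in urothelium, which overlapped.

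At the smallest FF input, Ovation at 50 pg, the low BC57 values sat in 1 library. Erbb3 had 7.18, 31.4 and 26.7 CPM in BC57, against 189, 175 and 132 CPM in urothelium, and Erbb2 had 9.23, 46.2 and 35.9 CPM in BC57, against 99, 119 and 79.2 CPM in urothelium. Library 1 was the lowest BC57 library for both genes, yet no BC57 library reached the urothelium libraries. In the same libraries, Hbegf was highest in library 1 of BC57, with 73.8, 23.5 and 59.1 CPM in BC57, against 0, 5.89 and 6.22 CPM in urothelium.

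Of the 8 genes tested in all 11 conditions, Egfr was called in the fewest. At 2 ng of FF RNA with Ovation it had 123, 127 and 132 CPM in BC57, against 113, 124 and 102 CPM in urothelium, with overlapping groups and a log2 fold change of 0.18 (SE 0.10; edgeR adjusted p = 0.0839). With 2 ng of FFPE RNA in the same kit it had 159, 160 and 170 CPM in BC57, against 99.8, 131 and 105 CPM in urothelium, without overlap and with a log2 fold change of 0.55 (SE 0.09; edgeR adjusted p = 1.46e-07). With all libraries thinned to equal depth, 3 of the 5 Egfr calls were lost: this one (0.22, adjusted p = 0.154), that at 250 pg of FFPE RNA with Ovation (0.39, 0.12, against 0.57, 0.0076) and that at 2 ng of FF RNA with SMARTer (0.11, 0.651, against 0.32, 0.0055). At 250 pg of FF RNA with Ovation, urothelium library 3 had 221.3 CPM beside 127 and 113 CPM in the other urothelium libraries and 149, 125 and 138 CPM in BC57. The log2 fold change was 0.22 without that library, against -0.16 with it. At 50 pg of FF RNA with Ovation the Egfr call (log2 fold change 0.75) was lost without BC57 library 3 (edgeR adjusted p = 0.0897) or without urothelium library 3 (0.0553).

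The difference between kits in the contrast of BC57 to urothelium was tested at 2 ng of FF RNA against the poly(A) libraries. Each difference came from a joint fit of all groups compared, with its own filter and scaling. It therefore need not equal the gap between the fold changes fitted within each condition. With Ovation, 1 of 10 genes was called, Btc, in a test where 8.58% of all genes were called. Btc had 27.7, 30.7 and 31.7 CPM in BC57, against 1.11, 3.17 and 0.901 CPM in urothelium with Ovation. In the joint fit, its log2 fold change was 1.50 higher there than in poly(A) libraries (SE 0.45, edgeR adjusted p = 0.0238). The urothelium side of that value rests on 2, 6 and 2 counts, and the call was lost without Ovation urothelium library 1 (1.32, adjusted p = 0.0957) or library 3 (1.29, 0.0691) and without poly(A) urothelium library 1 (1.32, 0.0505). With SMARTer, none was called by edgeR, where 8.77% of all genes were called, and DESeq2 called 1, Egfr, at -0.29 (adjusted p = 0.0062). By edgeR, Erbb3 was called there with no low-count filter (0.41, adjusted p = 0.0301). It was also called without SMARTer BC57 library 2 (0.41, 0.0301) or 3 (0.38, 0.0224) or SMARTer urothelium library 1 (0.36, 0.0351), 2 (0.38, 0.0243) or 3 (0.37, 0.03). Areg was called without SMARTer urothelium library 1 (1.30, 0.0343). In the joint fit, the Egfr contrast was 0.28 lower with Ovation than with poly(A) selection, a log2 difference of -0.28 (SE 0.10, edgeR adjusted p = 0.0643). That Egfr difference was called under RLE scaling (-0.40, 0.0071) and upper-quartile scaling (-0.40, 0.0075), by DESeq2 (-0.40, 0.00034), and without poly(A) urothelium library 1 (-0.32, 0.0198) or 2 (-0.33, 0.038) or poly(A) BC57 library 1 (-0.33, 0.0465). Btc was not called under either scaling (1.38 in both, 0.064 and 0.0635) or by DESeq2 (1.38, 0.0562), and when thinned its value was -0.73 (0.892). Tgfa was called by edgeR in the Ovation test with no low-count filter (0.43, adjusted p = 0.002). It was also called without Ovation BC57 library 1 (0.46, 0.0041) or Ovation urothelium library 2 (0.40, 0.0119) or 3 (0.37, 0.0216).

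Ratios of 2 genes within a library do not depend on scaling between libraries. There were 2.75 to 25.2 Egfr counts per Erbb3 count in the 33 BC57 libraries (median 5.53), against 0.321 to 1.62 in the 33 urothelium libraries (median 0.717). The ranges did not overlap in any kit, input or preservation, and without the SMARTer FFPE libraries numbered 3 the medians were 5.54 and 0.649. The summed counts of Hbegf, Areg, Ereg and Btc per Tgfa count ran from 1.6 to 9.44 in BC57 libraries (median 3.18) and from 0.002 to 7.8 in urothelium libraries (median 0.0876). The urothelium value of 7.8 belonged to SMARTer FFPE library 3 at 250 pg; without the libraries numbered 3 of that kit and preservation the highest urothelium value was 0.542 and the ranges were separate. For Erbb3 per Erbb2 the ranges overlapped, from 0.136 to 1.03 in BC57 (median 0.649) and from 0.469 to 5.16 in urothelium (median 1.48, or 1.49 without the SMARTer FFPE libraries numbered 3). Ranges also overlapped for Egfr per Erbb2, from 0.844 to 13.9 in BC57 (median 3.5) and from 0.387 to 3.86 in urothelium (median 1.16). Without the SMARTer FFPE libraries numbered 3 these medians were 3.51 and 1.08, and the ranges still overlapped.

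**Figure D4:**
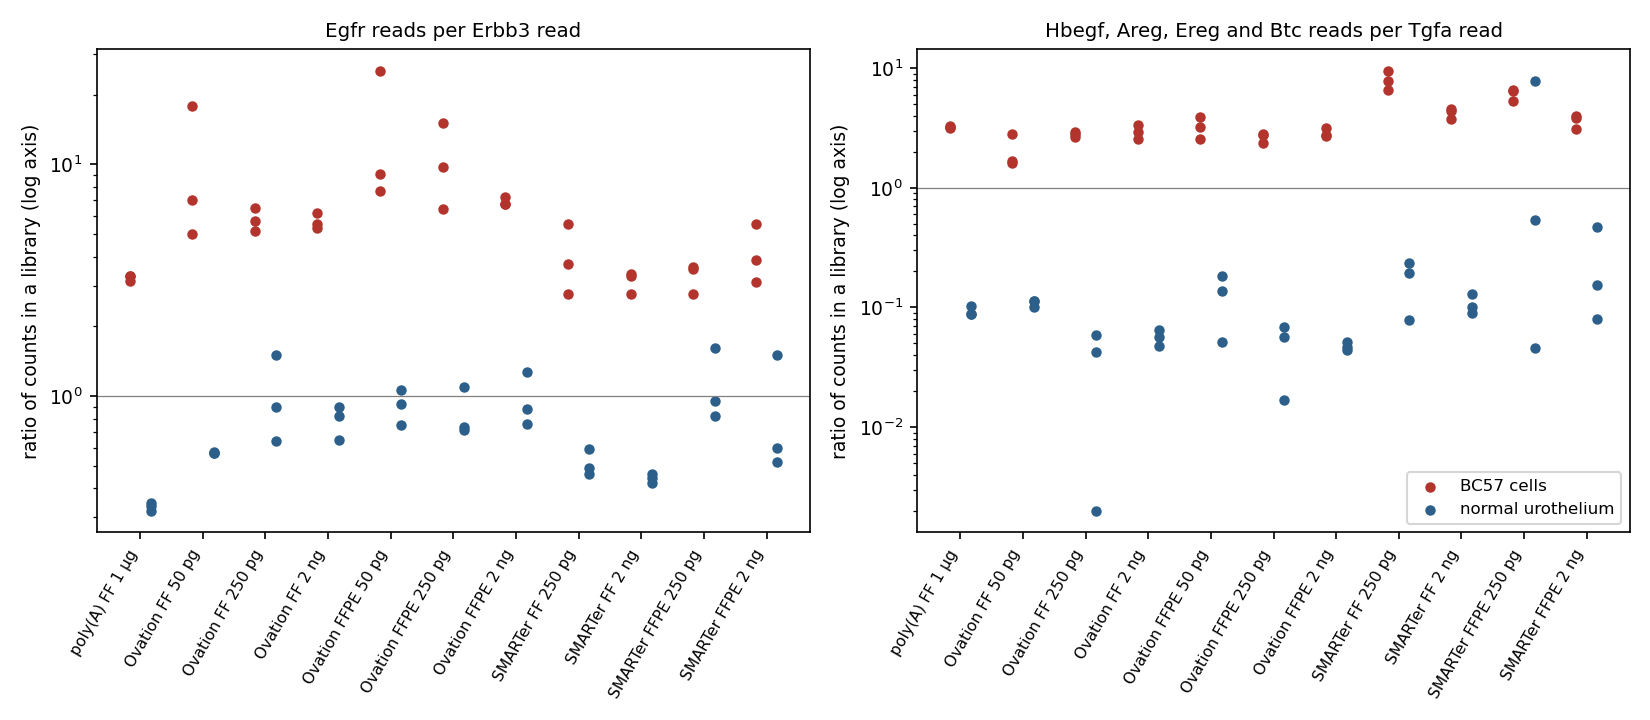
Counts of Egfr per count of Erbb3 (left) and summed counts of Hbegf, Areg, Ereg and Btc per count of Tgfa (right) in each library, on log axes, in the 11 conditions; red points are BC57 and blue points urothelium, 3 libraries each. On the left the lowest BC57 value of 2.75 lies above the highest urothelium value of 1.62; on the right 1 urothelium library, SMARTer FFPE 250 pg library 3, reaches 7.8.

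In SMARTer libraries of FFPE RNA, urothelium library 3 changed several of these contrasts. At 250 pg, Ereg had 73.4, 82.6 and 36.7 CPM in BC57, against 0, 0 and 135 CPM in urothelium, and Erbb4 had no count in BC57, against 38, 15 and 62 counts in urothelium. Hbegf had 53.9, 37.8 and 52.5 CPM in BC57, against 0.946, 24.8 and 87.7 CPM in urothelium, where library 3 was again the highest. Erbb4 was the only gene called there, lower in BC57 (edgeR adjusted p = 0.0354), and it was not called without the BC57 and urothelium libraries numbered 3 (adjusted p = 0.0614), nor with the replicate numbers as a block (adjusted p = 0.05001), which left 0 genes called. BC57 had no Erbb4 count in any of these settings. Leaving out any single library also ended the Erbb4 call; 4 genes were called without urothelium library 3 and 0 without any of the other 5. Without both libraries numbered 3, Erbb2 (log2 fold change -1.64, adjusted p = 0.0458), Erbb3 (-1.88, 0.0365), Areg (4.01, 0.0294) and Ereg (0.0028, with no urothelium count left) were called. The share of all genes called without them is not given here. Epgn showed 0, 0 and 17 counts in BC57 and 0, 0 and 10 counts in urothelium, so its counts sat in the libraries numbered 3 of both samples.

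At 2 ng of FFPE RNA in this kit, Erbb3 and Tgfa were called lower and Hbegf, Areg and Ereg higher. Erbb3 had 29.1, 22.5 and 25.5 CPM in BC57, against 112, 130 and 55.2 CPM in urothelium, and Erbb2 had 45.8, 33.9 and 43.2 CPM in BC57, against 108, 87.5 and 43.7 CPM in urothelium. For both genes urothelium library 3 was the lowest of its group, and for Erbb2 it overlapped the BC57 libraries. Erbb4 had 0, 0 and 6 counts in BC57, against 19, 7 and 63 counts in urothelium. Without both libraries numbered 3 the count of calls was 8 in place of 5: Egfr (log2 fold change 0.68, edgeR adjusted p = 0.0025), Erbb2 (-1.30, 2.03e-05) and Btc (2.23, 0.0073) were added. How many of all genes were called without them is not given here, so this gain is not read as a result about the set. Leaving out urothelium library 3 alone also gave 8, leaving out BC57 library 3 gave 4, and leaving out library 1 or 2 of either sample gave 3. The Erbb3 call was among those lost without BC57 library 1 (log2 fold change -2.03, edgeR adjusted p = 0.0766) or 2 (-1.84, 0.0922) and without urothelium library 1 (-1.83, 0.0616) or 2 (-1.69, 0.0631). With the replicate block, 4 genes were called and Tgfa was not (adjusted p = 0.0605).

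Formalin fixation was tested at 2 ng within each sample and kit. In BC57 with Ovation, 3 of 10 genes were called, 2 higher and 1 lower in FFPE, where 32.8% of all genes were called, 16.8% higher and 15.9% lower. Egfr averaged 167 ± 6.23 CPM in FFPE and 123 ± 4.69 CPM in FF libraries (SD, n = 3 each; log2 fold change 0.44, SE 0.08, edgeR adjusted p = 1.86e-05), Ereg 95.7 ± 10.6 CPM and 75 ± 4 CPM (0.35, SE 0.11, 0.0071), and Btc 21.1 ± 2.17 CPM and 29 ± 1.99 CPM (-0.46, SE 0.18, 0.0397). For each of the 3 the FFPE and FF libraries did not overlap. Only Egfr was called when FFPE library 2 was left out, and only Egfr was called by DESeq2. The Btc call was also lost without FF library 1 (edgeR adjusted p = 0.0511), 2 (0.101) or 3 (0.128), without FFPE library 3 (0.0949) and when thinned to equal depth (0.137). In urothelium with Ovation, 2 genes were called, where 37.3% of all genes were called, 19.3% higher and 18% lower. Erbb2 was lower, with 65.7 ± 2.77 CPM in FFPE against 90.1 ± 4.83 CPM in FF libraries (log2 fold change -0.45, SE 0.12, edgeR adjusted p = 0.0011), and Erbb4 higher, with 6.13 ± 1.8 CPM in FFPE against 2.04 ± 1.28 CPM in FF libraries (1.51, SE 0.49, 0.0106). The Erbb4 value rests on 14, 14 and 25 counts in FFPE and 2, 3 and 8 counts in FF libraries, and Erbb4 was not called without FF library 1, FF library 2 or FFPE library 3. Erbb4 passed the low-count filter through its FFPE counts, so its call is not set against the background.

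In SMARTer libraries the fixation calls were fewer. BC57 had 2, where 19% of all genes were called, 9.47% higher and 9.48% lower. They were Egfr, with 94.5 ± 14.9 CPM in FFPE against 71.9 ± 4.71 CPM in FF libraries (SD, n = 3 each; log2 fold change 0.40, SE 0.13, edgeR adjusted p = 0.0299), and Areg, with 29 ± 4.85 CPM against 42.4 ± 2.46 CPM (-0.54, SE 0.16, 0.0197). No gene of the set was called without FF library 1, 2 or 3, and 1 was called without FFPE library 1 or 2. Urothelium had none called by edgeR, where 1.81% of all genes were called. Without FFPE library 3, 2 were called by edgeR, Erbb2 (log2 fold change -0.36, adjusted p = 0.0271) and Erbb3 (-0.31, 0.0307). The share of all genes called without that library is not given here. Egfr was thus higher in FFPE than in FF libraries of BC57 with both kits. Whether fixation acted differently on BC57 and on urothelium was tested for Ovation, where edgeR called none of the set and 6.06% of all genes. The Egfr difference was 0.33 there (SE 0.13; edgeR adjusted p = 0.143), and it was called without urothelium FFPE library 2 (0.46, 0.0284).

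Several of the genes differed between kits at 2 ng of FF RNA. In BC57, 7 of 10 genes were called between SMARTer and Ovation libraries, 3 higher and 4 lower with SMARTer, where 53.3% of all genes were called, 26.9% higher and 26.4% lower. Btc averaged 11 ± 3.04 CPM in SMARTer and 26.9 ± 1.95 CPM in Ovation libraries (SD, n = 3 each), a log2 fold change of -1.28 (SE 0.21; edgeR adjusted p = 1.27e-06). Ereg stood at 40.1 ± 2.5 CPM in SMARTer and 69.6 ± 3.51 CPM in Ovation libraries, Tgfa at 34.8 ± 1.57 CPM and 57.7 ± 6.58 CPM, and Egfr at 81.5 ± 5.2 CPM and 114 ± 4.94 CPM, all of them called lower with SMARTer. Erbb2 (44.3 ± 4.1 CPM with SMARTer and 30.6 ± 4.75 CPM with Ovation), Areg (48.1 ± 2.92 CPM and 34.3 ± 1.25 CPM) and Hbegf (47.9 ± 6.58 CPM and 37.5 ± 1.97 CPM) were called higher with SMARTer. The Hbegf call was lost by DESeq2 (log2 fold change 0.35, adjusted p = 0.0582), when thinned (0.30, 0.276), and without Ovation library 1 (0.0791), Ovation library 2 (0.0711) or SMARTer library 3 (0.117), and the Erbb2 call when thinned (0.33, 0.267). In urothelium, 4 genes were called, where 49% of all genes were called, 25% higher and 24.1% lower. Egfr was lower with SMARTer (log2 fold change -0.59, SE 0.10), as was Tgfa (-0.62, SE 0.10), and Erbb2 (0.63, SE 0.10) and Erbb3 (0.23, SE 0.08) were higher. The Erbb3 call was lost without Ovation library 1 (edgeR adjusted p = 0.0793) or 2 (0.0864) and when thinned (0.093). Egfr, Tgfa and Erbb2 were called in the same direction in both samples. For Egfr, the kit difference of -0.49 in BC57 and -0.59 in urothelium stood beside a contrast of BC57 to urothelium of 0.32 with SMARTer and 0.18 with Ovation.

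Repeat libraries of 1 RNA sample spread more at low input. In BC57, for the 8 genes with a mean of at least 20 counts, the median coefficient of variation (CV) over 3 libraries was 2.04% in poly(A) libraries, where counting alone gives 2.39%. With Ovation and FF RNA the median CV fell with input, from 46.7% (50 pg) over 8.42% (250 pg) to 5% (2 ng), where counting gives 11.1%, 8.67% and 10.5%. The FFPE libraries of the kit gave 29.4%, 13.5% and 8.44% at the same inputs. SMARTer libraries of BC57 gave 25.7% at 250 pg and 6.38% at 2 ng of FF RNA, and 22% and 15% of FFPE RNA. Urothelium had its highest medians in SMARTer FFPE libraries, 47.1% at 250 pg and 39.5% at 2 ng. Without library 3 these were 31.8% and 6.44% over 2 libraries each, and those of the BC57 SMARTer FFPE libraries were 13.7% and 18.8%, as computed after the data had been seen. At 50 pg every gene measured this way spread more than counting alone would give, in both samples.

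**Figure D5:**
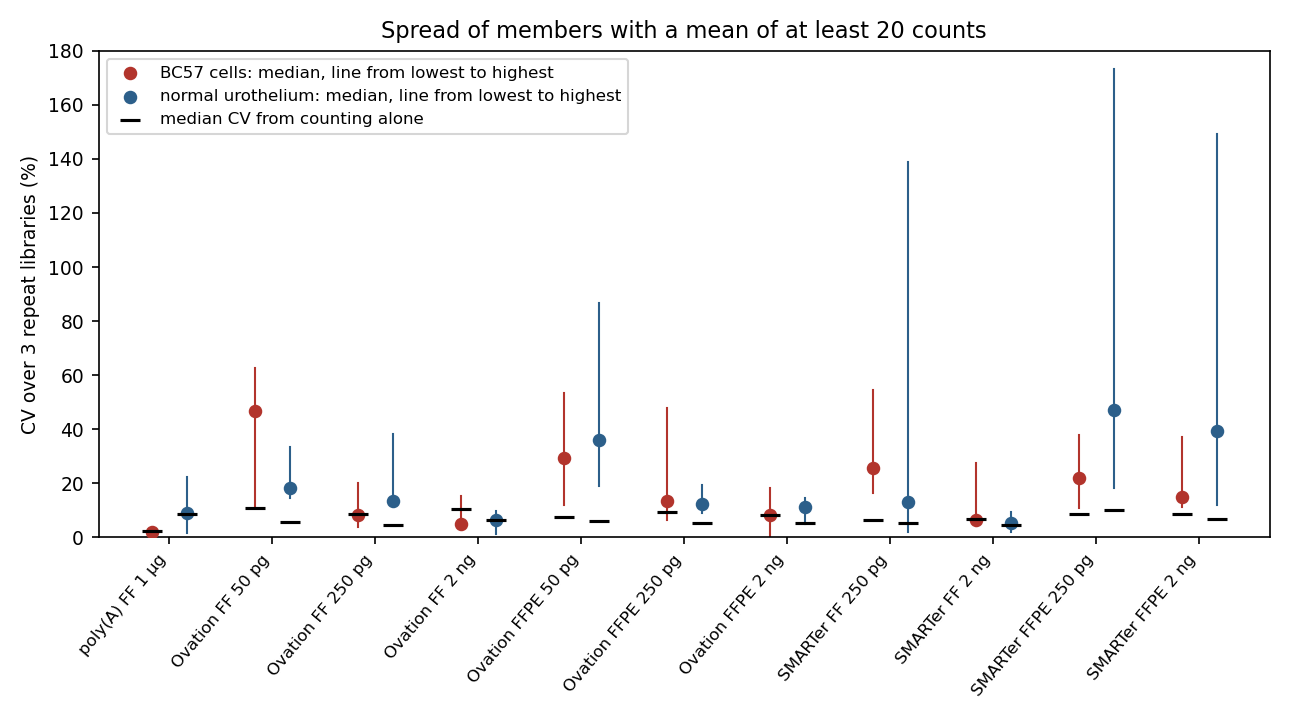
CV in percent over the 3 repeat libraries of each group for genes of the set with a mean of at least 20 counts (4 to 9 genes a group); points are medians, lines run from the lowest to the highest gene, and black marks give the median CV from counting alone. With Ovation and FF RNA the BC57 median is 46.7% at 50 pg and 5% at 2 ng.

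Genes whose levels followed each member most closely were sought over the 22 group means, on log2(CPM + 1) and among genes averaging at least 1 CPM. These points share samples and kits, so the correlations only describe likeness. Erbb3 was most like Upk3b, a uroplakin gene (r = 0.994), and Erbb2 like Hk1, which encodes a hexokinase (r = 0.969). Ereg was most like the chemokine gene Cxcl5 (r = 0.986), Areg like Lars (r = 0.982), Hbegf like Ripk3 (r = 0.978), Erbb4 like Arhgap15 (r = 0.976), Tgfa like Bcl6 (r = 0.956), Btc like Ell2 (r = 0.951) and Egfr like Fam135a (r = 0.938). Epgn averaged under 1 CPM and was left out. When the SMARTer FFPE libraries numbered 3 were left out of the means, a choice made after the data had been seen, the first gene was the same for Egfr, Erbb2, Erbb3, Erbb4 and Tgfa. It became Ctla2a for Hbegf (r = 0.968), Fasn for Areg (r = 0.983), Cxcl3 for Ereg (r = 0.989) and Ubtd2 for Btc (r = 0.949).

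Of the other ligands of the family, Nrg1 and Nrg2, which encode neuregulins, were called higher in BC57 in the poly(A) libraries and Egf and Nrg4 lower. Nrg1 averaged 8.69 ± 0.935 CPM in BC57 and 2.47 ± 0.0936 CPM in urothelium (SD, n = 3 each; log2 fold change 1.83), Nrg2 18.4 ± 1.38 CPM and 12 ± 0.936 CPM (0.60), Egf 0.429 ± 0.112 CPM and 1.44 ± 0.438 CPM (-1.80), and Nrg4 11.1 ± 0.77 CPM and 14.9 ± 0.296 CPM (-0.42). Nrg3 was not tested because of its low counts. In BC57 libraries the mean CPM of Egf was close to the 0.468 CPM of Epgn.

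Genes of the pathway were counted in the poly(A) comparison, where 91.2% of all genes tested were called, 42.8% higher and 48.5% lower, so the called share of each list below was near the background. Proteases and helpers that release the ligands moved both ways. Of 11 such genes, 7 were called higher and 4 lower in BC57 in the poly(A) libraries, with a median log2 fold change of 0.47. Adam12, a protease that can cut HB-EGF, averaged 89.2 ± 3.45 CPM in BC57 and 5.72 ± 0.837 CPM in urothelium (log2 fold change 3.94), and Adam9 275 ± 3.93 CPM and 98.7 ± 1.47 CPM (1.48). Adam19 went the other way, at 0.335 ± 0.103 CPM in BC57 and 21.4 ± 1.53 CPM in urothelium (-5.99). Of 25 adaptors and kinases below the receptors, 16 were called higher and 9 lower (median 0.40). Among them, Ptpn11, which encodes the phosphatase SHP2, averaged 432 ± 6.99 CPM in BC57 and 128 ± 4.69 CPM in urothelium (1.75), and Pik3r1, the regulatory subunit of phosphoinositide 3-kinase, 19.4 ± 1.09 CPM and 238 ± 2.65 CPM (-3.62). Braf, which encodes a kinase of the MAP kinase cascade, was also lower, at 30.8 ± 1.21 CPM in BC57 and 153 ± 6.8 CPM in urothelium (-2.32).

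Negative regulators of the receptors and of the MAP kinase cascade were called higher in 11 and lower in 8 of 20 cases, with 1 not called and a median of 0.40. Dusp5, a phosphatase that acts on ERK, averaged 75.7 ± 2.52 CPM in BC57 and 2.97 ± 0.636 CPM in urothelium (log2 fold change 4.63), and Errfi1, an inhibitor of the EGF receptor kinase, 94.7 ± 1.96 CPM and 26.5 ± 0.506 CPM (1.84). Lrig1, which restrains ERBB receptors, was at 11.8 ± 0.306 CPM in BC57 and 2.76 ± 0.343 CPM in urothelium (2.10). Lrig3 had no count in BC57 and 535 counts in urothelium, at least 197-fold lower in BC57 with 3 counts for the BC57 group as the floor. Of 20 genes listed as early response and ETS targets of the cascade, 19 were tested, 16 were called higher and 3 lower, against 42.8% of all genes higher and 48.5% lower, with a median log2 fold change of 2.64. Egr1 averaged 255 ± 0.0989 CPM in BC57 and 13.7 ± 0.915 CPM in urothelium (4.21), Fosl1 49 ± 0.448 CPM and 1.1 ± 0.336 CPM (5.41), Etv4 23.5 ± 2.06 CPM and 0.441 ± 0.0913 CPM (5.71) and Emp1 1502 ± 24.6 CPM and 87.4 ± 4.1 CPM (4.10). The median of this list was above 0 in all 11 conditions, from 1.49 to 2.64, and those of the other 3 lists ran from -0.26 to 0.60 for ligand release, from 0.04 to 0.50 for adaptors and kinases and from -0.18 to 0.40 for negative regulators. Without both SMARTer FFPE libraries numbered 3 the medians ran from 1.49 to 2.64 for the early response and ETS targets, -0.26 to 0.47 for ligand release, 0.04 to 0.40 for adaptors and kinases and -0.09 to 0.40 for negative regulators. The 4 lists were chosen with earlier results of these data known.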

How the data were processed

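RNA sequencing was measured in 66 libraries, which the series' design traces to 4 samples. The authors deposited raw read counts per gene, which they made with STAR, SAMtools and featureCounts on mm10, per the submitters' processing notes. Tool versions, the annotation and whether counting used strand are not given there; the low-input kits keep strand, per the labels' protocols. Of 39179 genes, 37607 were matched to a GENCODE M21 symbol.

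Within each of 20 comparisons, filterByExpr took out genes of low count, TMM set the library scale, and edgeR's quasi-likelihood test was applied (edgeR 4.0.16, R 4.3.3). Benjamini-Hochberg adjustment ran over all genes tested, and genes under 0.05 were called. The SE is the absolute log2 fold change over the root of F. CPM were scaled within the BC57 and urothelium pair of a condition, or within the comparison for fixation and kit, and lengths cover all exons. Exact intervals are Clopper-Pearson at 95%. Such intervals and the floors take in no error other than that of counting. Promoter sequences came from RefSeq (GRCm38.p6), which held 7 of the 10 genes.

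The members and gene lists were chosen with earlier results of these data known. All members are described; from each pathway list, genes were named among the 4 called with the largest poly(A) fold change. Libraries with the same replicate number deviated together, with every pair correlated above 0.1, in SMARTer FFPE at 250 pg (0.123, 0.114 and 0.211) and 2 ng (0.381, 0.39 and 0.529) and in no other condition. SMARTer FF at 2 ng came close (0.0962, 0.101 and 0.16). Every library matched best with its own number in these conditions and in Ovation FFPE at 2 ng (0.0255, 0.0045 and 0.0221). Alternatives were RLE and upper-quartile scaling, no low-count filter, DESeq2 1.42.0, the replicate block, each library left out, all libraries thinned to 651879 counts, and the SMARTer FFPE libraries numbered 3 left out.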

Additional observations from a re-analysis of the deposited data

Results flagged for a closer look

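The contrast of BC57 to urothelium for Btc differed between 2 ng Ovation libraries and poly(A) libraries of the same frozen samples, by 1.50 on the log2 scale (edgeR's quasi-likelihood test of the difference itself, adjusted p = 0.0238). This value came from a joint fit of all groups compared, so it need not equal the gap between contrasts fitted separately. The BC57 level was above the urothelium level in both, in all 3 of 3 libraries each. The urothelium side held 2, 6 and 2 counts with Ovation and 66, 71 and 70 counts with poly(A) selection. The difference was not called under RLE or upper-quartile scaling or by DESeq2.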

How the results depend on the processing

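All calls rest on libraries taken as repeats of 1 RNA sample, and depth limits Erbb4, Epgn and the urothelium side of the scarce ligands, which often hold under 10 counts. In the 11 comparisons of BC57 with urothelium the number of genes called stayed within 1.5 times outside SMARTer FFPE, as it did between kits. In SMARTer FFPE at 250 pg, 1 gene was called, against 3 by DESeq2, 0 with the replicate block, 4 without both libraries numbered 3 and 0 to 4 with single libraries left out. At 2 ng, 5 were called, against 8 without both libraries numbered 3 and 3 to 8 with single libraries left out. The replicate block changed 3 calls of single genes and no other: Btc in Ovation FF at 50 pg (adjusted p = 0.0611) and, in SMARTer FFPE, Erbb4 at 250 pg and Tgfa at 2 ng. For fixation in BC57 with Ovation, DESeq2 called 1 gene and single libraries left out gave 1 to 3, against 3; in urothelium with Ovation, DESeq2 and thinning each called 1 and single libraries gave 1 to 3, against 2. For fixation in BC57 with SMARTer, no low-count filter and thinning each called 1 and single libraries gave 0 to 2, against 2; in urothelium single libraries gave 0 to 2, against 0. The interaction of fixation and sample gave 0 to 1 with single libraries left out, against 0. The Ovation interaction gave 2 with no low-count filter, 0 when thinned and 0 to 2 with single libraries left out, against 1; the SMARTer interaction gave 1 with no low-count filter, 1 by DESeq2 and 0 to 2 with single libraries left out, against 0. In the Ovation interaction, Btc missed the threshold under RLE (1.38, adjusted p = 0.064), upper-quartile scaling (1.38, 0.0635) and DESeq2 (1.38, 0.0562), and Egfr was called under all 3. The median log2 value of all genes there was 0.11 under TMM, -0.01 under RLE and -0.01 under upper-quartile scaling. The cause of these changes was not tested.

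Many of the directions that turned were those of values near 0 or of few counts. Tgfa in the Ovation interaction was an exception, at 0.43 with no low-count filter and -0.040 when thinned. Egfr in SMARTer FF at 250 pg was -0.029 under RLE, -0.0096 under upper-quartile scaling, -0.027 by DESeq2 and -0.014 with the replicate block, and -0.18 to 0.12 with single libraries left out. In SMARTer FFPE at 250 pg, Egfr was 0.00995 with no low-count filter and -0.23 to 0.15 with single libraries left out, and Hbegf -0.027 when thinned and -0.18 to 1.92. Egfr in Ovation FF at 250 pg ran from -0.33 to 0.22 with single libraries left out. For fixation in BC57 with SMARTer, Erbb2 was 0.036 when thinned (-0.19 to 0.051 with single libraries left out), Erbb3 -0.062 with no low-count filter, -0.018 by DESeq2 and -0.0027 when thinned (-0.094 to 0.12), Hbegf 0.062 when thinned (-0.16 to 0.053), and Btc -0.21 to 0.33. For fixation in urothelium, Egfr with Ovation ran from -0.038 to 0.16; with SMARTer, Egfr was -0.042 with no low-count filter, and Tgfa -0.11 with no low-count filter and -0.043 by DESeq2 (-0.14 to 0.21). In the interaction of fixation and sample, Hbegf was -0.064 when thinned and Erbb2 -0.0012 to 0.27 with single libraries left out. In the Ovation interaction, thinning gave -0.025 for Erbb3, -0.040 for Tgfa and -0.73 for Btc, DESeq2 1.85 for Erbb4, and no low-count filter 0.075 for Areg (-0.21 to 0.18 with single libraries left out). In the SMARTer interaction, Erbb2 was -0.049 under RLE, -0.053 under upper-quartile scaling, -0.048 by DESeq2 and -0.17 when thinned, and thinning gave -0.37 for Areg, -0.0087 for Tgfa and -0.96 for Btc; Erbb4 ran from -2.60 to 4.22 with single libraries left out. The cause was not tested.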
